A study of Mus musculus with 32 samples.

Results

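Mouse livers taken 6 days after a scrambled locked nucleic acid (LNA) were compared with livers taken after 3 days, separately in females and in males. The comparison rests on 12 mice of the 32 in the study, chosen by their labels. They form 4 scrambled LNA groups of 3 mice, 1 for each sex and day, and the ratio of the group means at day 6 and day 3 was taken within each sex. All were outbred Crl:CD1(ICR) mice, 9 weeks old at injection and labelled 10 weeks. Each mouse received 2 subcutaneous doses of 25 mg/kg, 1 dose on Day 0 and the other on Day 1, in the morning. The other 20 mice, in groups of 5, received an LNA against miR-802-5p (LNA-802, females) or against miR-1948-5p (LNA-1948, males) on the same schedule. Poly(A) RNA of whole liver was sequenced from strand-specific libraries. No group was untreated or collected before injection, so the comparison holds the time since injection and everything else that differed between the collection days. The libraries of day 3 and of day 6 also carry different series labels, so day and library series cannot be told apart. The values are the authors' mean FPKM (mapped fragments scaled by gene length and library size) of each group, with no value for a single mouse. No error stands beside a mean, no day comparison could be tested, and the depth of the libraries is unknown.

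LNA oligonucleotides are short, nuclease-resistant antisense molecules that enter the liver readily and bind microRNAs by base pairing, and a scrambled sequence serves as the control for injection and for the chemistry itself. Hepatic gene expression also follows conditions that vary from day to day. Feeding state alters gluconeogenic, ketogenic and heme synthesis genes, the hour of collection alters clock genes, pulses of growth hormone keep male and female genes apart, and interferon from immune cells raises a set of GTPases in hepatocytes. Control groups of outbred mice show how far such genes lie apart when no microRNA is targeted.

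The scrambled oligonucleotide is shown because every mouse compared here carried it, and no letters are capitalised.
scrambled LNA: acgtctatacgccca
Its 15 bases hold no complement to the seed (bases 2 to 8) of any of 1679 mature mouse miRNAs in the RefSeq table. The same search returned miR-802-5p for LNA-802. For LNA-1948 it returned miR-496a-3p and did not return miR-1948-5p, so it does not cover every mouse miRNA. This is a statement about letters only and says nothing of other binding.

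Sex markers matched the labels: Xist, the RNA that silences an X chromosome in females, was at 34.0 and 36.9 FPKM in the female groups at day 3 and day 6 and at 0.0213 and 0.0163 FPKM in the male groups. All 20 hepatocyte markers reached 1 FPKM in both sexes, with albumin (Alb) between 15168 and 22690 FPKM in the 4 groups. Markers of T and NK cells and of B and plasma cells stayed below 1 FPKM, with 0 members measured in either sex.

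Few genes lay far apart between the days. Of 9478 genes at 1 FPKM or more in either female group, 38 (0.401%) differed by at least 2-fold on the log2(FPKM + 1) scale, 15 higher at day 6 (0.158%) and 23 lower (0.243%). Of 9235 genes in males, 32 (0.347%) differed by as much, 9 higher (0.0975%) and 23 lower (0.249%). Between the days, 98.3% of genes in females and 98.6% in males stayed within 1.5-fold. Many of these genes reached 1 FPKM on 1 of the days only, and 17 genes in females and 21 in males were past 2-fold among those at 1 FPKM or more on both days. The median log2 ratio was 0.03 in females and -0.04 in males, with 61.6% of all genes above 0 in females and 64.6% below 0 in males. By the same count, 18 of 9384 genes (0.192%) were past 2-fold between the days in LNA-802 females and 47 of 9256 (0.508%) in LNA-1948 males.

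What a 2-fold gap between group means amounts to can be read from comparisons that the authors tested. In the 4 comparisons of anti-miR with scrambled mice, between 21 and 34 genes were past the same 2-fold rule. The authors' deposited table gives an edgeR adjusted p below 0.05 for between 1 and 12 of those genes. Without adjustment, p was below 0.05 for between 17 and 32 of them in each comparison. Those tests had 5 mice against 3. In the authors' tests of scrambled males against females, with 3 mice against 3, 199 of 219 genes past 2-fold at day 3 and 218 of 240 at day 6 had an adjusted p below 0.05. The share past the authors' test thus ranged widely between comparisons, and it is unknown for the days. A gap past 2-fold is given below as a value only.

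Few of the larger day differences lay the same way in both sexes. Across the 9069 genes kept in both sexes, the log2 ratios of females and males had a Pearson correlation of -0.09, given as a description over genes. Females and males share no mice here but share their days and library series. Only 1 gene (0.0110%) was past 2-fold the same way in both sexes, the lower Mir23b, a 75-base microRNA locus. Of the 9069 genes, 18 were past 2-fold in females only, 25 in males only and 3 in both. The rest of the 38 and 32 genes past 2-fold were not kept in the other sex and could not be shared. At 1.5-fold, 16 genes lay the same way in both sexes and 15 lay opposite ways, out of 157 (1.66%) past that fold in females and 130 (1.41%) in males.

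**Figure D1:**
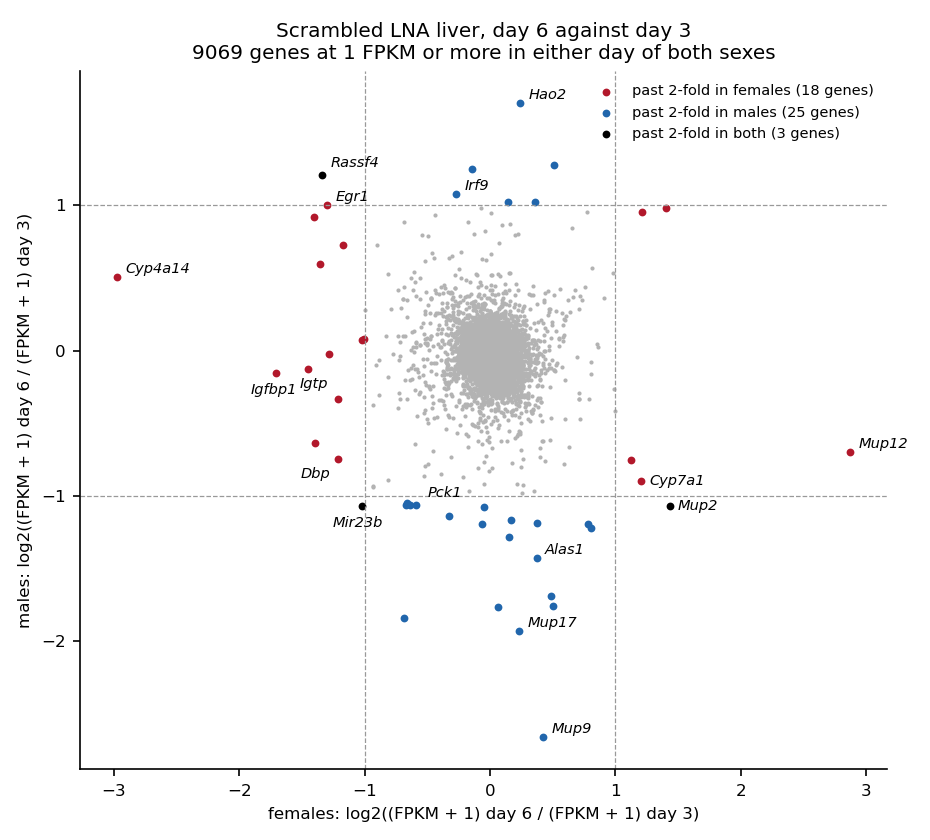
Each point is 1 of 9069 genes, with the log2 ratio of (FPKM + 1) at day 6 to day 3 in scrambled LNA females on the x axis and in males on the y axis; dashed lines mark 2-fold. Most points crowd around 0, the 18 genes past 2-fold in females and the 25 in males lie along different axes, and 3 genes are past 2-fold in both.

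Several interferon-inducible GTPase genes had lower means at day 6 in females, and they were brought together after their values were seen. Proteins of the IRG and GBP families take part in defence against intracellular parasites and are induced by interferon gamma. Igtp (Irgm3), at mm9 chr11:58013057-58021094, had a mean of 39.1 FPKM at day 3 and 13.7 at day 6, a log2 ratio of -1.45. Its neighbour Irgm2 had 24.4 and 9.44 FPKM, a log2 ratio of -1.28. Both stood higher in the scrambled females of day 3 than in any of the other 7 groups, where Igtp lay between 8.57 and 13.7 FPKM.

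Other GTPase genes at lower levels were also past 2-fold lower in females. Gm12250 (Irgb10) had 4.71 FPKM at day 3 and 1.25 at day 6, and the near-identical neighbours Tgtp1 and Tgtp2 had log2 ratios of -1.41 and -1.35. Reads of Tgtp1 and Tgtp2 may have been divided between them, so their single values are uncertain. Gbp4, a guanylate-binding protein, had 3.27 and 1.00 FPKM, a log2 ratio of -1.09. Gbp11, another gene of that family, differed from these, with 24.4 and 27.5 FPKM in females (log2 ratio of 0.17) and 29.3 and 12.5 in males, where it was past 2-fold lower (-1.17).

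Promoters of 5 of these GTPases are shown because they carry the same pair of interferon-type motifs. The stretches come from the RefSeq promoter table (GRCm38.p6, gene strand, 250 bases before to 50 after the gene start), and capitals mark matches to TTCNNNGAA (the GAS type) and to GAAANNGAAA (the ISRE type, TTTCNNTTTC on the other strand).
Igtp chr11:58199491-58199551 (+): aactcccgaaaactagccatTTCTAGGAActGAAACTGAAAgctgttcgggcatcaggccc
Irgm2 chr11:58214882-58214942 (+): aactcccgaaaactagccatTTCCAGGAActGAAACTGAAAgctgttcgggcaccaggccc
Tgtp1 chr11:48992294-48992354 (-): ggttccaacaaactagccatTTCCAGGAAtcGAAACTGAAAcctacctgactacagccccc
Tgtp2 chr11:49064253-49064313 (-): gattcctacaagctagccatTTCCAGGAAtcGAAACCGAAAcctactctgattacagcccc
Gm12250 chr11:58183732-58183826 (+): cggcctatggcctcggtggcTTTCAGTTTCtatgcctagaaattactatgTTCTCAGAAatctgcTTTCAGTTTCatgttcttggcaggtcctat
In the first 4 promoters 2 bases separate the GAS-type match from the ISRE-type match, and in Gm12250 the pair is 6 bases apart and a second ISRE-type match lies further upstream. The GAS-type match begins between 45 and 88 bases before the gene start. Of 32851 promoters in the table, 8.30% hold the GAS type, 3.44% the ISRE type and 0.454% both, counting either strand. A match is a description of letters and not of binding. The pair is not limited to genes that were lower. Of 22 promoters of the interferon list, 5 hold both motifs, those of Igtp, Irgm2, Gbp7, Oas1a and Bst2, and Bst2 lay level in females. The motifs were chosen after the values were seen, and Gbp4 had no entry.

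The wider interferon list was mixed. Of its 30 genes, 24 were measured in females, 16 below 0 (beside 38.4% of all genes) and 8 above, with 2 past 2-fold lower (Igtp and Irgm2) and a median of -0.23. Among genes best known as targets of type I interferon, Ifit1, which binds foreign RNA, had 1.64 FPKM at day 3 and 1.82 at day 6, and Bst2, which tethers viruses, had 44.9 and 45.1 FPKM. In 14 of the 24 genes the scrambled females of day 3 had the highest mean of the 4 female groups, against 15.8% of all genes. That count follows in part from the ratio itself, with 16 of the 24 below 0. The 17 Kupffer cell and macrophage markers in the table, a cell type that answers to interferon, summed to 141 FPKM at day 3 and 149 at day 6 and had a median of 0.04. In whole liver, fewer cells of a type and less RNA per cell cannot be told apart.

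In the other groups Igtp and Irgm2 differed less between the days. In scrambled males Igtp had 9.45 FPKM at day 3 and 8.57 at day 6, Irgm2 had 7.37 and 7.24, and the interferon list had a median of 0.02. LNA-802 females had 12.3 FPKM of Igtp at day 3 and 12.1 at day 6. The authors' deposited table compares LNA-802 with these same scrambled females at day 3 and gives an Igtp ratio of 0.307 with an adjusted p of 0.522. For Irgm2 the ratio in the authors' deposited table is 0.266 with an adjusted p of 0.191, so neither gap passed their test over mice.

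**Figure D2:**
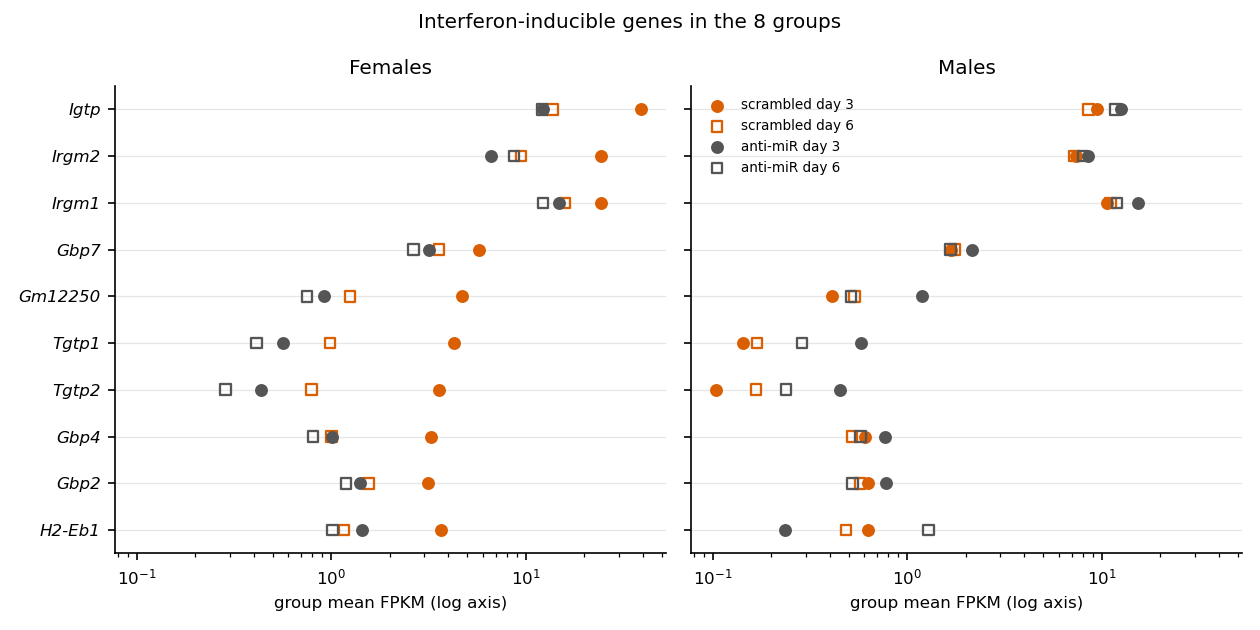
Group mean FPKM (log x axis) of 10 interferon-inducible genes in the 4 female groups (left) and the 4 male groups (right); filled circles are day 3 and open squares day 6, orange scrambled LNA and grey anti-miR. The filled orange circle lies to the right of the other 3 female groups in every row, for instance 39.1 FPKM for Igtp.

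In males 1 interferon gene, Irf9, a transcription factor of the type I interferon response, was past 2-fold higher, at 3.27 FPKM on day 3 and 7.99 on day 6. It had 6.11 and 4.90 FPKM in scrambled females, and 7.76 and 3.49 FPKM in LNA-1948 males, the opposite order. No other of the 16 list members measured in males was past 2-fold.

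Cyp4a14, a fatty acid hydroxylase and a sensitive target of PPARA, had 18.7 FPKM at day 3 and 1.51 at day 6 in females, a log2 ratio of -2.97. In scrambled males it lay the other way, at 11.9 and 17.2 FPKM. LNA-802 females had 20.3 and 12.1 FPKM, while LNA-1948 males, like scrambled females, were past 2-fold lower at day 6, at 13.05 and 1.63 FPKM (log2 ratio of -2.42). The authors' deposited table gives a ratio of LNA-802 to scrambled females of 8.10 at day 6 with an adjusted p of 0.031. The PPARA and fatty acid oxidation list as a whole lay level, with a median of 0.01 over 31 genes in females and 0.01 over 30 in males.

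Igfbp1, a secreted binding protein for insulin-like growth factors that insulin represses, had 17.7 FPKM at day 3 and 4.73 at day 6 in scrambled females, a log2 ratio of -1.71. In scrambled males it had 5.10 and 4.47 FPKM. LNA-802 females, which are other mice, had 11.7 and 4.19 FPKM, the same direction and also past 2-fold. In the authors' deposited table the ratio of scrambled males to females was 0.292 at day 3 (adjusted p of 1.55e-08) and 1.01 at day 6 (adjusted p of 1). The difference between these sex ratios was not tested.

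Pck1, the rate-limiting enzyme of gluconeogenesis, lay lower at day 6 in both sexes. Its means were 342 and 220 FPKM in females (log2 ratio of -0.63) and 299 and 142 in males (-1.07). G6pc, which releases free glucose, had 84.8 and 64.5 FPKM in females and 97.5 and 53.7 in males. In LNA-1948 males the means were 276 and 158 FPKM for Pck1 and 93.0 and 54.5 for G6pc, close to those of the scrambled males of the same day. LNA-802 females did not share the direction, with 231 and 244 FPKM of Pck1. The gluconeogenesis, glycogen and glycolysis list lay close to level, with medians of -0.05 over 22 genes in females and -0.07 over 21 in males and 1 member past 2-fold in each. Of the 15 glucocorticoid target genes, which include Pck1 and Igfbp1, 13 of 15 measured in females and 11 of 14 in males were below 0, beside 38.4% and 64.6% of all genes. The medians were -0.26 and -0.22, with 1 member past 2-fold in each sex.

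Alas1, the first and rate-limiting enzyme of heme synthesis, which fasting induces, was past 2-fold lower in males, at 22.01 FPKM on day 3 and 7.56 on day 6 (log2 ratio of -1.43; mm9 chr9:106135785-106150285). LNA-1948 males had 26.2 and 10.1 FPKM, so both male treatments were at the lower level on day 6. Scrambled females lay slightly the other way, at 23.4 and 30.6 FPKM. In the authors' deposited table the ratio of scrambled males to females was 0.953 at day 3 (adjusted p of 1) and 0.262 at day 6 (adjusted p of 7.03e-09), and the difference between them was not tested. Mfsd2a, a lysophospholipid transporter that fasting induces in liver, had 5.50 and 1.68 FPKM in scrambled males and 4.46 and 1.09 in LNA-1948 males. Alas1, Mfsd2a, Pck1 and Gm6614 were 4 of the 15 genes of 200 bases or more past 2-fold lower in scrambled males that were also at least 1.5-fold lower in LNA-1948 males.

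Cholesterol synthesis genes were higher together in females at day 6 without any reaching 2-fold. Of 26 genes, 24 were measured in females, 23 of them above 0 (beside 61.6% of all genes), with a median of 0.43 beside 0.03 for all genes. Idi1, an isomerase that supplies isoprenoid units, had 29.6 FPKM at day 3 and 45.4 at day 6. Mvd and Sqle, 2 further enzymes of the pathway, had log2 ratios of 0.58 and 0.53. Insig1, which holds the sterol sensor back, was the 1 member below 0, at 92.9 and 88.8 FPKM. Hmgcs1, the synthase of the pathway, is listed at 0 in all groups.

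In 20 of the 24 cholesterol genes measured in females, the scrambled females of day 3 had the lowest mean of the 4 female groups, against 35.9% of all genes. With 23 of the 24 already lower at day 3 than at day 6, this count follows in part from the ratio itself. For Idi1 the other female groups held between 44.1 and 45.5 FPKM. In LNA-802 females the list lay the other way between the days, with 21 of 24 below 0 (beside 54.8% of all genes). The median there was -0.13. In males the list had a median of 0.12, with 17 of 24 genes above 0 (beside 35.4% of all genes) and none past 2-fold. In LNA-1948 males 22 of 24 were above 0 (beside 57.6% of all genes), with a median of 0.21. Fatty acid and triglyceride synthesis genes had medians of 0.21 in females and 0.15 in males, led in females by Aacs, which makes acetoacetyl-CoA in the cytosol, at 5.83 and 11.4 FPKM.

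Cyp7a1, which catalyses the first committed step from cholesterol to bile acids, was past 2-fold higher in females, at 14.5 FPKM on day 3 and 34.7 on day 6 (log2 ratio of 1.20). In males it lay lower, at 4.63 and 2.02 FPKM (-0.90). LNA-802 females had 23.2 and 13.2 FPKM, again the other order. The authors' deposited table gives a ratio of LNA-802 to scrambled females of 0.383 at day 6, with an adjusted p of 0.00021. It was the 1 member of the 22 bile acid and sterol catabolism genes past 2-fold in females, and the list medians were 0.03 and -0.06.

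Chaperones of the endoplasmic reticulum lay lower in scrambled females at day 6 and slightly higher in males. Of 24 ATF4 and unfolded protein response genes measured in each sex, 18 were below 0 in females (median -0.19) and 17 above 0 in males (median 0.08), none past 2-fold. Of all genes, 38.4% were below 0 in females and 35.4% above 0 in males. In LNA-802 females the list lay the other way, with 21 of 24 above 0 (beside 45.2% of all genes) and a median of 0.16. In LNA-1948 males 20 of 24 were above 0 (beside 57.6% of all genes), with a median of 0.27. Creld2, an inducible disulfide isomerase, had 13.5 and 8.37 FPKM in females and 8.58 and 12.5 in males. Hspa5 (BiP), the main chaperone of that compartment, had 176 and 136 FPKM in females and 140 and 169 in males. In 18 of the 24 genes the scrambled females of day 6 had the lowest mean of the 4 female groups, against 22.5% of all genes. Such a count follows in part from the ratio itself, as most of the 24 were below 0 in females. The authors' deposited table gives a Hspa5 ratio of LNA-802 to scrambled females of 1.77 at day 6, with an adjusted p of 0.003, a comparison that shares these mice.

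Several genes with a known sex bias were among those past 2-fold in scrambled males. The major urinary proteins, pheromone carriers that growth hormone drives most strongly in males, were lower at day 6. Of 16 measured in males, 14 were below 0 (beside 64.6% of all genes) and 5 were past 2-fold lower, with a median of -0.57. Of the 14 members at 1 FPKM or more on both days, 4 were past 2-fold lower, again with a median of -0.57. Mup9 (mm9 chr4:60430918-60434824) had 27.4 FPKM at day 3 and 3.50 at day 6, a log2 ratio of -2.66. Mup17 had 48.1 and 11.9 FPKM, Mup16 had 7.61 and 1.67, and Mup20, which encodes the male pheromone darcin, had 1174 and 555 FPKM. Mup2 completed the 5, at 2.39 and 0.62 FPKM.

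The most abundant member, Mup3, lay level in males, at 2785 FPKM on both days, and Mup10 had 796 and 759. The Mup genes are close copies of each other, and the counting could have divided their reads, so the value of a single Mup gene is uncertain. LNA-1948 males lay the other way, with a list median of 0.64 and 17.2 and 80.3 FPKM of Mup9. The authors' deposited table gives an LNA-1948 to scrambled ratio of 22.2 for Mup9 at day 6, with an adjusted p of 0.00021, and 0.636 at day 3, with an adjusted p of 1. In 12 of 16 Mup genes the scrambled males of day 6 had the lowest mean of the 4 male groups, against 42.8% of all genes. This count follows in part from the ratio itself, as most of these genes were lower at day 6 than at day 3.

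Single female-biased genes had higher means at day 6 in scrambled males, while the list as a whole depended on its low members. Of 42 listed, 19 were measured in males, 13 above 0 (beside 35.4% of all genes) and 3 past 2-fold, with a median of 0.26. Cyp3a41a and A1bg reached 1 FPKM only at day 6 and so could only lie above 0. Of the other 17 members 11 were above 0 and 2 past 2-fold, with a median of 0.07. Hao2, a peroxisomal oxidase of long-chain hydroxy acids that female liver expresses strongly, had 2.04 FPKM at day 3 and 8.90 at day 6 (log2 ratio of 1.70; mm9 chr3:98678441-98697153). Cyp2c69 had 1.23 and 3.52 FPKM and Cyp3a41a had 0.0536 and 1.14, both members of P450 families with close copies. These levels remained below those of females, where Hao2 had 29.4 and 34.9 FPKM. The male-biased list had a median of -0.11 in scrambled males, with 24 of 29 genes below 0 (beside 64.6% of all genes) and Mup20 past 2-fold lower.

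LNA-1948 males showed the reverse order, with 7.95 FPKM of Hao2 at day 3 and 1.52 at day 6. The authors' deposited table gives an LNA-1948 to scrambled ratio of 3.87 at day 3 (adjusted p of 9.48e-05) and of 0.165 at day 6 (adjusted p of 0.0145). Both ratios rest on the scrambled males described here. The female-biased list had a median of -0.35 between the days in LNA-1948 males and the male-biased list 0.53. Socs2, a growth hormone target that dampens its signal, had 14.1 and 6.77 FPKM in scrambled males and 10.2 and 8.92 in scrambled females.

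In scrambled females the same lists lay elsewhere. The Mup list had a median of 0.33, with 12 of 16 genes above 0 (beside 61.6% of all genes). Mup12 (0.60 and 10.7 FPKM) and Mup2 (0.82 and 3.91 FPKM) were past 2-fold higher, and both reached 1 FPKM only at day 6. Over the 13 members at 1 FPKM or more on both days the median was 0.31, with none past 2-fold. The female-biased list had a median of 0.15 over 38 genes. A1bg, a plasma glycoprotein gene of female liver, had 459 and 910 FPKM, just short of 2-fold at a log2 ratio of 0.98. Selenbp2, a male-biased selenium-binding protein, was also just short, at 12.5 and 25.8 FPKM.

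**Figure D3:**
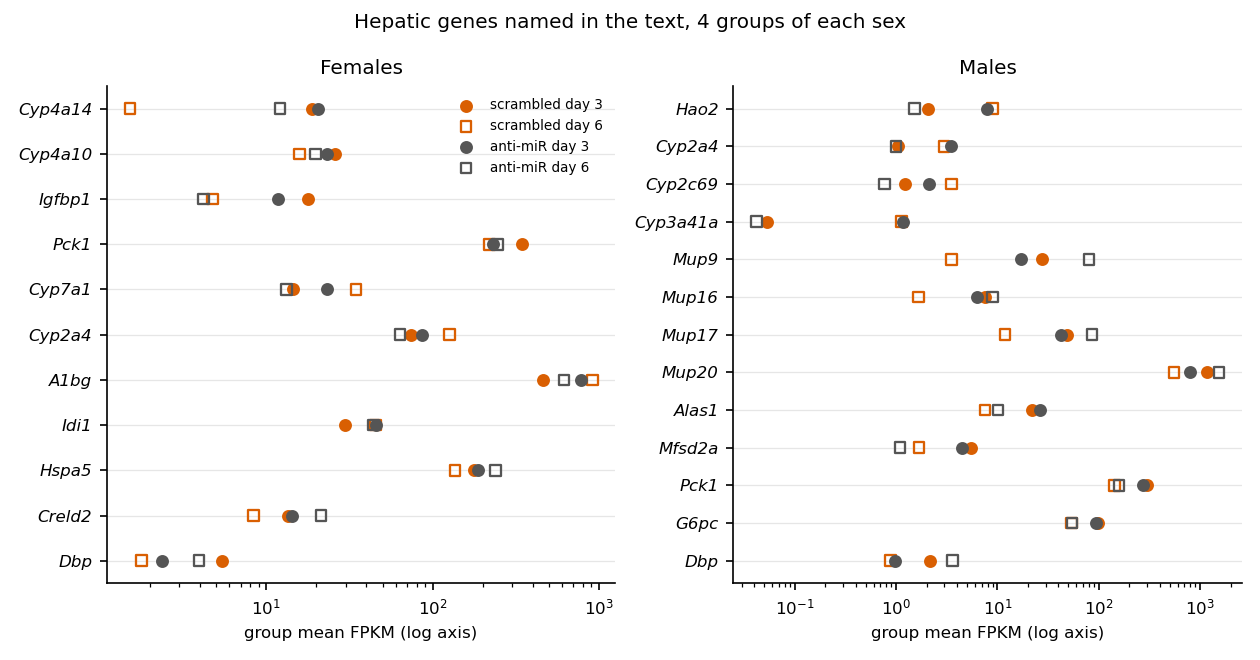
Group mean FPKM (log x axis) of genes described in the text in the 4 female groups (left) and the 4 male groups (right), with circles for day 3, squares for day 6, orange for scrambled LNA and grey for anti-miR. In males the orange square of Mup9, at 3.50 FPKM, lies far left of the grey square at 80.3, while for Alas1 both squares lie left of both circles.

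Rassf4 and Mup2 were the 2 genes past 2-fold in opposite directions. Rassf4, which encodes a Ras-association protein, had 4.48 FPKM at day 3 and 1.17 at day 6 in females, and 2.22 and 6.42 in males. The gene 8430408G22Rik (Depp1 in RefSeq) lies inside the span of Rassf4 on mm9 chromosome 6 and had 24.3 and 8.89 FPKM in females and 27.1 and 41.5 in males. The authors' deposited table gives LNA to scrambled ratios of Rassf4 at day 6 of 2.97 in females (adjusted p of 0.036) and 0.355 in males (adjusted p of 0.00021).

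Clock genes mostly had small ratios, below 0 more often than above it in females, with the output gene Dbp furthest apart. Dbp, whose level swings widely over the day, had 5.42 FPKM at day 3 and 1.78 at day 6 in females (log2 ratio of -1.21) and 2.15 and 0.88 in males (-0.75). In anti-miR mice the order was the reverse, at 2.35 and 3.93 FPKM in LNA-802 females and 0.98 and 3.58 in LNA-1948 males. Arntl and Nr1d1, core genes of the oscillator, had 4.58 and 4.57 FPKM and 12.6 and 11.4 FPKM in females. The clock list had medians of -0.14 over 17 genes in females and -0.01 over 15 in males, with Dbp, in females, the 1 member past 2-fold. Below 0 were 13 of the 17 in females (beside 38.4% of all genes) and 8 of the 15 in males (beside 64.6%). The labels give the hours of injection and not those of collection.

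Immediate early genes, which respond within minutes to handling and feeding, were lower at day 6 in females, where 8 of 10 measured were below 0 (beside 38.4% of all genes) with a median of -0.26 and 1 past 2-fold. Egr1, a zinc finger factor of this class, had 4.59 and 1.27 FPKM in females and 1.21 and 3.43 in males, a value just short of 2-fold higher. Junb had 5.64 and 2.84 FPKM in females. In males the list had a median of 0.03 over 8 genes.

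The acute phase, p53, heat shock, NRF2 and metallothionein lists had no member past 2-fold between the days in either sex. The interferon list, described above, is not among them. Of all genes only 0.401% in females and 0.347% in males were past 2-fold, so lists of this size would often hold none. No group was untreated, so a response to the oligonucleotide that was alike on both days would not be seen. The acute phase list had medians of -0.09 in both sexes. Saa1, a serum amyloid that rises in inflammation, had 21.5 and 25.9 FPKM in females and 53.5 and 26.7 in males, a log2 ratio of -0.98 in males. The p53 list had medians of -0.06 and 0.05 over 10 genes, with Cdkn1a, a cell cycle inhibitor, at 4.45 and 1.96 FPKM in females. Heat shock, NRF2 and metallothionein lists had medians between -0.16 and 0.12, and Mt1, a zinc-binding protein, had 57.2 and 69.4 FPKM in females. Ribosomal protein, oxidative phosphorylation and proteasome lists had medians within 0.1 of 0 in both sexes. In females 27 of 29, 15 of 40 and 19 of 31 of their members were below 0, beside 38.4% of all genes. In males 23 of 29, 38 of 40 and 23 of 31 were below 0, beside 64.6% of all genes.

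Antigen-presenting genes varied gene by gene, and the list of 20 class I and class II genes had medians of -0.03 in females and 0.03 in males. H2-Eb1, a class II chain, had 3.68 FPKM at day 3 and 1.16 at day 6 in females, a log2 ratio of -1.12. H2-Ea-ps, a class II pseudogene, was past 2-fold higher in females, at 0.30 and 2.45 FPKM, and so reached 1 FPKM only at day 6. LNA-802 females had the reverse order, at 3.38 and 0.16. H2-Q6 and H2-Q8, which share 1 place on mm9 chromosome 17 and so cannot be separated, had 5.08 and 4.93 FPKM at day 3 and 1.92 and 1.86 at day 6 in males. H2-K1, a classical class I chain, lay the other way, at 65.8 and 98.0 FPKM in males and 71.5 and 127 in females.

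Marker lists of most liver cells had medians close to 0. Endothelial, stellate and hepatocyte lists had medians between -0.10 and 0.03 in both sexes with no member past 2-fold, beside 0.401% and 0.347% of all genes. Below 0 in females were 14 of 18, 6 of 13 and 16 of 20 of their members, beside 38.4% of all genes. In males these were 13 of 18, 4 of 14 and 15 of 20, beside 64.6%. Only 2 cholangiocyte markers were measured, with medians of -0.22 in females and 0.25 in males. Erythroid markers, a sign of blood in the tissue, had a median of 0.32 in females, with 7 of 8 above 0 (beside 61.6% of all genes) and a summed level of 78.5 FPKM at day 3 and 99.2 at day 6. In males the erythroid median was -0.15, with 8 of 8 below 0 (beside 64.6% of all genes) and sums of 129 and 115 FPKM. Their part in the other values was not tested.

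**Figure D4:**
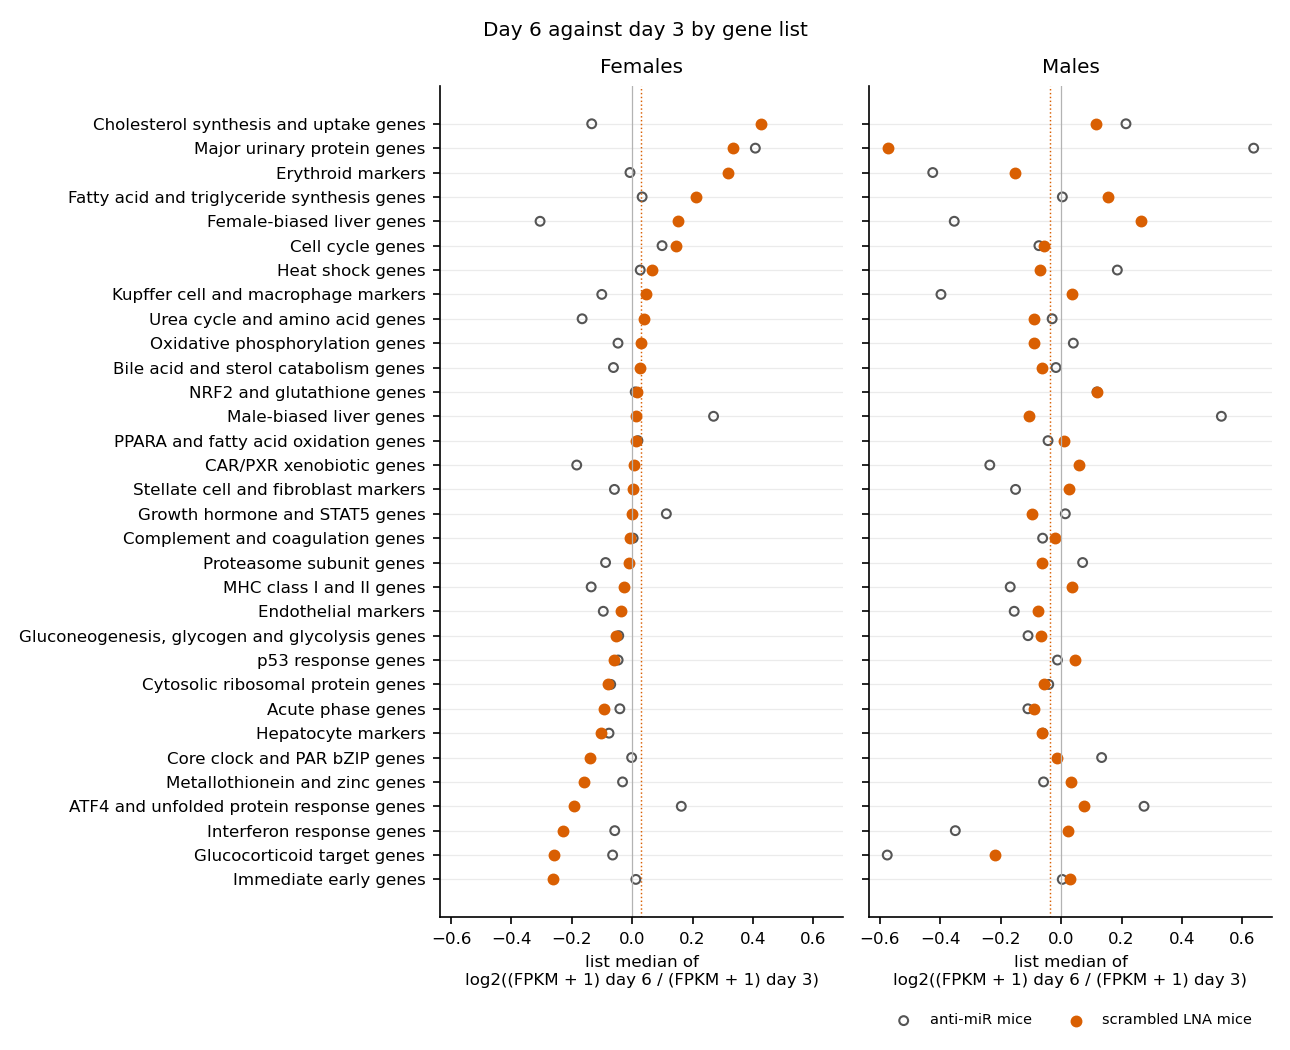
Medians of the log2 ratio of (FPKM + 1) at day 6 to day 3 for 32 gene lists with at least 3 measured members in both sexes, ordered by the value in scrambled females (left) and shown for males (right); orange points are scrambled LNA mice, open circles anti-miR mice, and the dotted line is the median of all genes in scrambled mice. Cholesterol synthesis leads in females at 0.43, and the Mup list lies lowest in males at -0.57 while the open circle for LNA-1948 males lies at 0.64.

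Many of the largest ratios belonged to very short features. In females 12 of the 38 genes past 2-fold spanned less than 200 bases, 8 of the 15 that were higher, while such features made up 216 of the 9478 genes kept. In males 9 of the 32 were that short, of 207 among 9235. Mir135a-1, a 91-base locus, had the highest ratio of all, listed at 0 FPKM at day 3 and at 20.1 at day 6 in females. Since FPKM divides by length, a few fragments give such a value, and poly(A) libraries do not measure mature microRNAs. Without these features 26 genes in females (7 higher and 19 lower) and 23 in males (8 higher and 15 lower) were past 2-fold.

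The anti-miR mice of the same sex give a view of the same days in other animals, whose values for several of these genes are given above. Of the 19 genes of 200 bases or more that were past 2-fold lower in scrambled females, 14 were also below 0 in LNA-802 females, beside 54.8% of all genes. Only 4 were at least 1.5-fold lower there, namely Igfbp1, Cyp4a14, Rgs16 and 8430408G22Rik. Of the 7 that were higher, 3 were above 0, beside 45.2% of all genes. Gm30505, an unnamed transcript among them, was past 2-fold in both female treatments, at 0.58 and 2.65 FPKM with scrambled LNA and 0.59 and 6.04 with LNA-802. Of the 15 lower in scrambled males, 6 were below 0 in LNA-1948 males, beside 42.4% of all genes. Of the 8 higher ones, 2 were above 0, beside 57.6% of all genes. Nat8, an acetyltransferase gene, was 1 of these, at 1.42 and 4.21 FPKM with scrambled LNA and 1.72 and 4.59 with LNA-1948.

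Among the genes past 2-fold, which scrambled group stood away from the rest of its sex differed between genes. These genes were chosen by the gap between the scrambled means, and only scrambled groups were checked. The counts therefore follow in part from that choice, and they were not taken over all genes. In females, 10 of the 26 genes of 200 bases or more had a day 3 scrambled mean at least 2-fold from each of the other 3 female groups, the GTPases Igtp, Irgm2, Gm12250, Tgtp1, Tgtp2 and Gbp4 among them. The day 6 scrambled mean stood apart in this way for 3 genes, Cyp4a14, Mup2 and Psmc3ip. In males 0 of 23 had such a day 3 mean and 3, Mup9, Mup16 and Mup17, had such a day 6 mean.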

How the data were processed

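Per the submitters' processing notes, TopHat2, featureCounts, edgeR and the mm9 build were used; versions are not given in the sources used here. The authors deposited 1 table of 24197 genes that gives, per the file headers, group means in FPKM. It also holds the authors' expression ratio and their p-value and adjusted p-value for 7 comparisons, per the file headers, none of them day 6 against day 3. Blocks were joined by their own gene symbols, since 1 block stands in another row order. The 6 further columns of group means, which repeat or pool scrambled groups, were not used.

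From these means, log2((day 6 FPKM + 1)/(day 3 FPKM + 1)) was computed within each sex for genes at 1 FPKM or more on either day. A gene was counted past 2-fold at a log2 size of 1 or more. No test was possible without values per mouse, and depth is unknown. The count was tested on simulated means with known changes. Alternatives were a pseudocount of 0.1 or 5, a minimum of 5 FPKM, all genes and median centring; a fold of 1.5, leaving out features under 200 bases and a minimum of 1 FPKM on both days were added after the data were seen. Python 3.11.15, numpy 2.4.6, pandas 2.3.3 and matplotlib 3.10.9 were used.

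The comparison, its members and the 39 gene lists (847 genes, 835 in the table) were chosen with earlier results of these data known. Named genes are the 10 highest and 10 lowest ratios per sex, genes past 2-fold in both sexes, the 4 largest members of each list with any member past 2-fold, and 20 fixed genes, not all of which are reported here. Names outside this rule, such as Irgm1, Gbp2, Gbp4, Gbp7, Gbp11, Oas1a, Ifit1, Bst2, A1bg, Cyp26a1, Mup3, Mup10, Nat8, Rgs16 and Psmc3ip, were chosen after their values were seen. Replicates were separate mice per the labels, although the titles of the 3 scrambled females of day 6 repeat 1 replicate number and differ in a further code.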

Additional observations from a re-analysis of the deposited data

How the results depend on the processing

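No paired analysis was possible because the table holds group means and no values per mouse, and leaving out single mice could not be run for the same reason. The counts of genes past 2-fold depended on how low values were treated. With a pseudocount of 0.1 they were 90 in females, 94 in males, 10 the same way in both sexes and 36 list members. With a pseudocount of 5 they were 8, 5, 0 and 10. At a minimum of 5 FPKM they were 11 in females, 16 in males and 0 in both. Median centring gave 38 and 34, with 2 genes the same way in both sexes in place of 1. At 1.5-fold, added after the data were seen, the counts were 157, 130 and 16, with 75 list members in place of 21. Among genes at 1 FPKM or more on both days, also added after the data were seen, they were 17 in females, 21 in males and 0 in both, with 17 list members, and the median of the female-biased list in males moved from 0.26 to 0.07. Without features under 200 bases 0 genes lay the same way in both sexes. Using all genes of the table could alter none of these counts, since a gene under 1 FPKM on both days cannot reach 2-fold with a pseudocount of 1. None of the 49 named values past 2-fold could turn its direction under the alternatives run. A pseudocount does not alter the sign of a ratio, and the medians used for centring were only 0.03 and -0.04. A pseudocount of 5 left 13 of the 49 past 2-fold. All 49 stayed past it with median centring. They had to stay past it with a pseudocount of 0.1, as a smaller pseudocount only enlarges a ratio. No list median of at least 0.2 in size changed sign.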
